A study of Mus musculus with 2 samples.

Results

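The genes Calca, Calcrl, Ramp1, Ramp3, Nmur1 and Vipr2, which take part in signalling between nerves and immune cells, were followed across the immune cells of mouse adipose tissue. These are 6 of the 28692 genes in the deposited tables, taken by symbol, and their counts were summed over the cells of each deposited cluster in each library. The material was CD45+ cells (leukocytes) from the adipose tissue of adult C57BL/6 mice of wild-type genotype, sequenced cell by cell in 2 libraries. One library came from mice on control chow and 1 from mice fed a ketogenic diet, a low-carbohydrate diet that raises blood ketone bodies, for 1 week. In both, cells inside blood vessels had been labelled intravenously so that tissue-resident cells could be told apart, and libraries followed a 10x Genomics protocol. With 1 library per diet, every difference below compares 2 libraries, has no replicate check and carries no p-value. The 6 genes had been picked from their levels in these libraries, so their levels are described and not tested.

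Calcitonin gene-related peptide (CGRP) is a neuropeptide of sensory neurons that widens blood vessels and acts on immune cells. Its receptor is built from a G protein-coupled receptor, Calcrl, and the accessory protein Ramp1, whereas Calcrl with Ramp3 responds to adrenomedullin. Both receptors raise cyclic AMP inside the cell. Group 2 innate lymphoid cells (ILC2) are tissue lymphocytes without antigen receptors that make IL-5, IL-13 and amphiregulin, and ILC2 of the lung are known both to make CGRP and to respond to it. Nmur1, a receptor for neuromedin U, and Vipr2, a receptor for vasoactive intestinal peptide, are other routes by which nerves act on ILC2.

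In the GRCm38 annotation, Calca lies at chr7:114631478-114636357 on the minus strand and Calcrl at chr2:84330626-84425411 on the minus strand. Ramp1 lies at chr1:91179822-91225196 on the plus strand and Ramp3 at chr11:6658521-6677475 on the plus strand. Nmur1 lies at chr1:86386303-86426228 on the minus strand and Vipr2 at chr12:116077726-116146261 on the plus strand. All 6 are protein-coding genes. Calca transcripts end either in the calcitonin exon or in the CGRP exons, and these counts per gene do not separate the forms.

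The 250 bases before the start site of Calca and of Ramp1 are printed because these genes had their highest levels in different lymphocytes, ILC2-like and gamma-delta T-like cells. The sequences are from RefSeq (GRCm38.p6), written 5′ to 3′ along the gene's strand, and capitals mark GATA on either strand (TATC is GATA on the other strand), the core letters bound by Gata3, a factor of ILC2.
Calca, chr7:114636358-114636607, minus strand: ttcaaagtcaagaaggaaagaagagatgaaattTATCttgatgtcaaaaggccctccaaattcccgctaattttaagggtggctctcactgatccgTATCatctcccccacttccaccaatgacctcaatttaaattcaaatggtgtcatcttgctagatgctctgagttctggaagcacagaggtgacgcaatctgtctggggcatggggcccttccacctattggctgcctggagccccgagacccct
Ramp1, chr1:91179572-91179821, plus strand: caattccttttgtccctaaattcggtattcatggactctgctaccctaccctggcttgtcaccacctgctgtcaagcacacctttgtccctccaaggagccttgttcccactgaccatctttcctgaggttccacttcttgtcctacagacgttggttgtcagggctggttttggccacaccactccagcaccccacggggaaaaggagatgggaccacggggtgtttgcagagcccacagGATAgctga
The Calca window held GATA 2 times, starting at positions -217 and -154 from the start site, and the Ramp1 window once, at position -9. GATA occurred in 53.6% of the 32851 promoter windows of this length, so its presence sets neither gene apart. The letters TGACG, which open a cyclic AMP response element, occurred once in the Calca window and in 17.8% of all windows, and not in the Ramp1 window. The E-box letters CANNTG occurred once in each window and in 66.2% of all windows.

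The chow library held 4545 cells with a median of 3469 UMIs (unique molecular identifiers, each standing for 1 captured RNA molecule), and the ketogenic library 5614 cells with a median of 3461.5. The authors' clustering placed 4458 and 5559 of these cells in 13 clusters. Cluster 0, with 854 chow and 1310 ketogenic cells at medians of 2610.5 and 3133 UMIs, is called ILC2-like: 12 of 14 ILC2 markers were raised in it, and Hs3st1 and Il5 were among its 10 leading genes. Calca itself and the haemoglobin gene Hba-a1 were also among those 10, so Calca may have helped to define the cluster. Among the neuron and glia markers, Snap25, Uchl1, S100b and Prph had 0 UMIs in the cluster in both libraries, and Tubb3 had 1 chow UMI. Of 7 T cell markers, 4 were lower in the cluster than over the other clusters of the chow library and 6 in the ketogenic library. Their summed level was 914 CPM (UMIs for every 1000000 UMIs of the same cluster and library) against 665 in the chow library and 1146 against 2245 in the ketogenic library. Cd3e was at 18.1 and 20.9 CPM, against 54.2 and 190 CPM over the other clusters, and Cd3g at 133 and 143 CPM, against 122 and 422. Lat was higher in the cluster in both libraries, at 261 and 351 CPM against 63.8 and 218, and Trbc2 was at 420 and 554 CPM against 189 and 664. The mast cell gene Tpsb2 had 0 chow and 151 ketogenic UMIs there, and Cpa3 had 10 and 61. The macrophage gene Lyz2 was at 544 CPM in the chow and 109 CPM in the ketogenic cells of the cluster, against 7659 and 1623 CPM over the other clusters. The part of these other cells in the results below was not tested. The libraries had 41 barcodes in common, of which 3 were in the same cluster in both, and 11 cells of cluster 0 carried one.

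Calca, the ligand gene, was concentrated in the ILC2-like cells of both libraries. It had 550 UMIs in the chow library, a level of 231 CPM with an exact 95% counting interval of 212 to 251, and 1680 UMIs in the ketogenic library, a level of 385 CPM (367 to 404). These intervals cover counting error only. The level was 1.67-fold higher in the ketogenic library (interval 1.51 to 1.84), and the 2 intervals did not overlap. These cells were 19.2% of the clustered chow cells and held 83.1% of their Calca UMIs. In the ketogenic library they were 23.6% of the cells and held 83.9%.

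**Figure D1:**
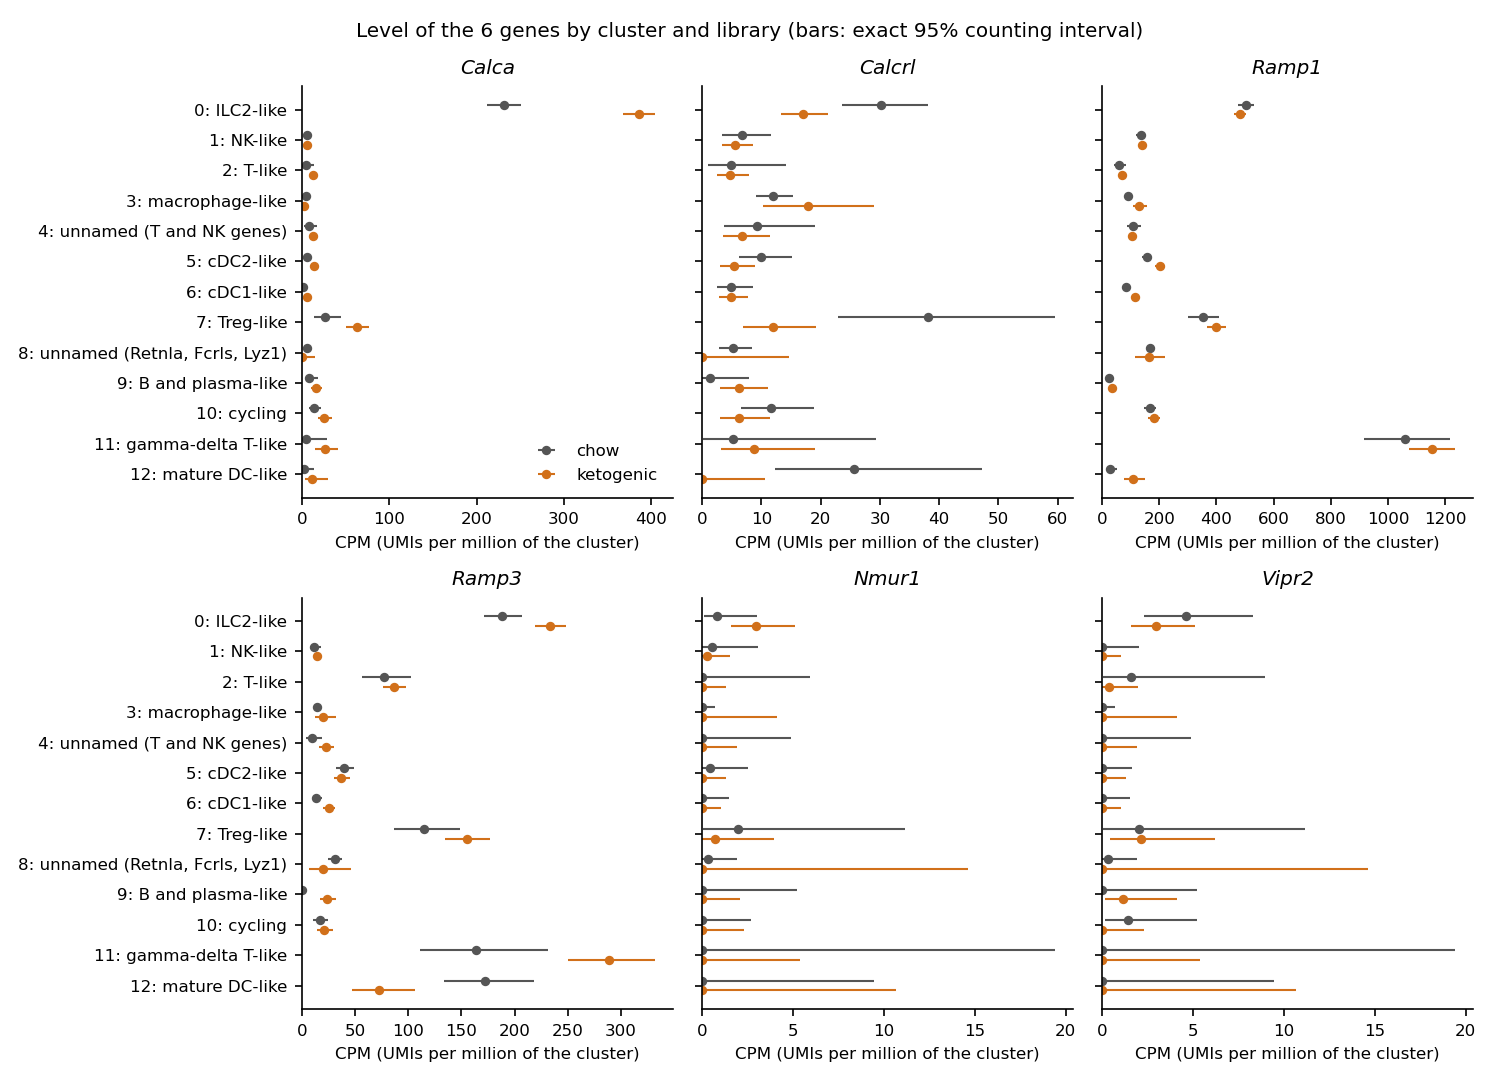
Levels of the 6 genes (horizontal axes, CPM, linear from 0, a different scale for each gene) in the 13 clusters (rows) in the chow (grey) and ketogenic (orange) library; points are sums over cells and bars exact 95% counting intervals. Calca stands at 231 and 385 CPM in the ILC2-like cluster and at 62.9 CPM or below in every other, Ramp1 peaks in the gamma-delta T-like cluster, and Nmur1 and Vipr2 stay below 5 CPM throughout.

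Calca transcripts were detected in a minority of ILC2-like cells, a share that depends on depth, and cells without a Calca UMI may still have held some. A Calca UMI was found in 195 of 854 chow cells (22.8%) and 366 of 1310 ketogenic cells (27.9%). The share in NK-like cells, natural killer cells that serve here as background, was 0.967% and 1.69% at similar medians of 2296.5 and 3147 UMIs. After thinning every cell to 1000 UMIs, which removes the difference in depth, 13.6% of chow and 17.9% of ketogenic ILC2-like cells had a Calca UMI. The cells with Calca held 2.82 Calca UMIs each on average in the chow library and 4.59 in the ketogenic library.

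The difference between the libraries was widest among cells with many Calca UMIs. Cells with 1 Calca UMI were 9.25% of chow and 7.18% of ketogenic ILC2-like cells, with overlapping intervals. Cells with at least 3 were 8.43% (exact binomial interval 6.65 to 10.5) and 15.6% (13.7 to 17.7). Cells with 10 or more numbered 7 in the chow library (0.820%) and 43 in the ketogenic library (3.28%), and they held 16.9% and 37.0% of the cluster's Calca UMIs. Each of these shares is of cells as sequenced, with the ketogenic cells somewhat deeper. The tenth of cells with most Calca held 74.4% and 71.4% of the UMIs, and the highest cells had 17 and 31.

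**Figure D2:**
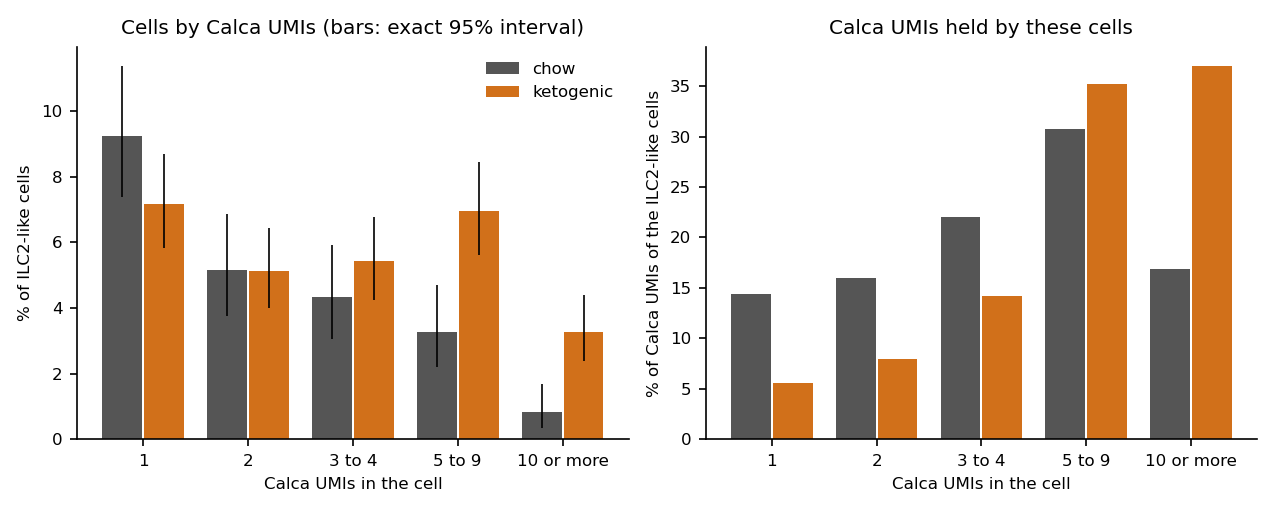
ILC2-like cells by their number of Calca UMIs (horizontal axes), as a percentage of all ILC2-like cells of the library (left, bars with exact 95% binomial intervals) and as a percentage of the cluster's Calca UMIs (right), in the chow (grey) and ketogenic (orange) library. Cells with 10 or more Calca UMIs are 0.820% of chow and 3.28% of ketogenic cells and hold 16.9% and 37.0% of the UMIs.

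Outside the ILC2-like cluster, Calca had a median over the other 12 clusters of 5.47 CPM in the chow library and 12.7 CPM in the ketogenic library. Next in order were the Treg-like cells (regulatory T cells, with all 5 Treg markers raised), at 26.1 CPM (13 UMIs, 13.9 to 44.6) and 62.9 CPM (89 UMIs, 50.5 to 77.4). There the ketogenic level was 2.41-fold higher (1.34 to 4.70), a difference past 2-fold, which 3.46% of the genes of that cluster also had in this direction. The Treg-like cluster also had 8 of the 14 ILC2 markers raised. Its 28 ketogenic cells with a Calca UMI carried Cd3e at 242 CPM and Foxp3, the defining factor of regulatory T cells, at 47.1 CPM, against 355 and 113 CPM in the cells without one. The ILC2 genes were not all on 1 side in these ketogenic cells: Gata3 (404 against 506 CPM), Il1rl1 (262 against 393 CPM) and Areg (794 against 1528 CPM) were lower with Calca, and Hs3st1 (161 against 54.5 CPM) was higher. In the 7 chow cells with Calca, Cd3e was at 388 CPM from 10 UMIs, against 286 CPM without, with overlapping intervals. Single cells weighed heavily in other clusters: 1 cell held 21 of the 41 ketogenic Calca UMIs of the cycling cluster, 12 of the 37 in conventional dendritic cells of the cDC2-like cluster and 8 of the 22 in the cDC1-like cluster. In chow cycling cells, Gata3 was at 295 CPM with Calca and 46.6 CPM without, and Areg at 1413 and 164 CPM. In ketogenic cycling cells Gata3 was at 160 and 68.1 CPM, Areg at 401 and 155 CPM and Il1rl1 at 45.1 and 45.9 CPM. In ketogenic cDC2-like cells Areg was at 386 and 102 CPM, Gata3 at 74.8 and 25.7 CPM and Hs3st1 at 12.5 and 13.8 CPM. No doublet call was made, so pairs of cells under 1 barcode were not removed.

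The 4 other ligand genes of the family had fewer UMIs than Calca in the ILC2-like cells. Adm, which encodes adrenomedullin, had 63 and 119 UMIs in the ILC2-like cells, 26.5 and 27.3 CPM, with a ratio of log2 0.04 between the libraries. Adm was also present in mature DC-like cells (dendritic cells with migration markers) at 15.4 and 37.6 CPM, from 6 and 13 UMIs. Calcb, the paralog of Calca that encodes the second CGRP, had 0 chow and 12 ketogenic UMIs in the ILC2-like cells, all 12 in 1 cell that also had Calca. The genes are similar in sequence, so reads may be shared and Calcb counts are uncertain. Adm2 had 1 UMI in all clusters and Iapp had 0.

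Calcrl, the receptor protein common to the CGRP and adrenomedullin receptors, was detected at a low level and in few cells. Its ILC2-like level was 30.3 CPM (72 UMIs, 23.7 to 38.1) in the chow library and 17.0 CPM (74 UMIs, 13.3 to 21.3) in the ketogenic library. The ratio was 0.561 (0.400 to 0.787), log2 -0.83, in the direction opposite to that of Calca. A Calcrl UMI was found in 7.85% and 5.50% of ILC2-like cells, against 1.66% and 1.79% of NK-like cells, and in 2.93% and 1.68% after thinning. In the chow library the Treg-like cells were highest at 38.1 CPM (19 UMIs, 23.0 to 59.6), not separable from the ILC2-like and mature DC-like levels, the latter 25.7 CPM (10 UMIs, 12.3 to 47.2). In the ketogenic library the macrophage-like cells were highest at 17.9 CPM (16 UMIs, 10.2 to 29.1), which overlapped the ILC2-like interval. The Treg-like ketogenic level was 12.02 CPM (17 UMIs), a ratio of 0.315 (0.154 to 0.640) to the chow level. The mature DC-like cells had 10 chow and 0 ketogenic UMIs, at least 2.96-fold lower when the ketogenic library is set at 3 counts.

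Ramp1, the partner that makes Calcrl a CGRP receptor, was highest in the gamma-delta T-like cells, innate-like T cells with all 8 detected markers of that type raised. The level there was 1059 CPM (201 UMIs, 917 to 1216) in the chow library and 1152 CPM (786 UMIs, 1073 to 1236) in the ketogenic library, with overlapping intervals. A Ramp1 UMI was found in 96.6% and 95.9% of these cells, and in 64.4% and 66.5% after thinning. The receptor chain gene Trdc marks these cells, and Ramp1 was at 1071 and 1098 CPM in those with a Trdc UMI and at 1024 and 1213 CPM in those without. Cells without a Trdc UMI were 14 of 59 in the chow library and 74 of 170 in the ketogenic library. In the same cells Calcrl had only 1 chow and 6 ketogenic UMIs.

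ILC2-like cells came next for Ramp1, at 503 CPM (1196 UMIs, 475 to 532) and 482 CPM (2101 UMIs, 462 to 503). Their ratio between the libraries was 0.958 (0.892 to 1.03), log2 -0.06, with overlapping levels. A Ramp1 UMI was found in 66.3% and 73.4% of ILC2-like cells, and in 36.4% and 36.1% after thinning. Treg-like cells followed at 351 CPM (301 to 407) and 398 CPM (366 to 432), below the ILC2-like interval in both libraries. Lowest were the B and plasma-like cells of the ketogenic library, 34.2 CPM (26.1 to 44.0), and in the chow library the B and plasma-like cells at 22.7 CPM (12.9 to 36.8) and the mature DC-like cells at 28.2 CPM (14.1 to 50.5), which overlapped. Ramp1 was higher in the ketogenic library in 4 of the myeloid clusters. The macrophage-like level was 91.2 and 130 CPM, the cDC2-like level 156 and 202 CPM and the cDC1-like level 84.9 and 115 CPM, with ratios of 1.42 (1.15 to 1.75), 1.29 (1.13 to 1.48) and 1.35 (1.14 to 1.61). The unnamed cluster 8, which also has macrophage markers raised, was at 168 CPM (490 UMIs) and 163 CPM (41 UMIs), a ratio of 0.967 (0.685 to 1.33). The mature DC-like level was 28.2 CPM from 11 UMIs and 110 CPM from 38 UMIs, 12 of which lay in 1 cell, a ratio of 3.89 (1.95 to 8.44) from fewer UMIs than the minimum of 50 used for counts of genes past 2-fold.

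Ramp3, the partner that turns Calcrl towards adrenomedullin, was spread over several lymphocyte clusters and the mature DC-like cells. In ILC2-like cells it was at 188 CPM (448 UMIs, 171 to 207) in the chow library and 234 CPM (1018 UMIs, 219 to 248) in the ketogenic library, a ratio of 1.24 (1.11 to 1.39). In gamma-delta T-like cells it was at 163 CPM (31 UMIs, 111 to 232) and 289 CPM (197 UMIs, 250 to 332), a ratio of 1.77 (1.21 to 2.67). The chow level there was 137 CPM (19 UMIs, 82.2 to 213) in cells with a Trdc UMI and 236 CPM (12 UMIs, 122 to 413) in those without, against 277 and 302 CPM in the ketogenic library. The ILC2-like and gamma-delta T-like levels overlapped in the chow library, and the gamma-delta T-like level was the higher one in the ketogenic library. Treg-like cells followed at 114 and 155 CPM and T-like cells at 77.2 and 86.5 CPM, while NK-like cells had 11.7 and 14.2 CPM.

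The mature DC-like cells went the other way for Ramp3. Their level was 172 CPM (67 UMIs, 133 to 218) in the 60 chow cells and 72.3 CPM (25 UMIs, 46.8 to 107) in the 49 ketogenic cells, a ratio of 0.420 (0.254 to 0.674). That is past 2-fold lower, as were 2.39% of the genes of that cluster. In the unnamed cluster 4, which has T and NK cell genes, Ramp3 was at 9.29 CPM (7 UMIs) and 22.7 CPM (44 UMIs), a ratio of 2.44 (1.09 to 6.42). There 1.96% of genes were at least 2-fold higher. In the B and plasma-like cells Ramp3 had 0 chow and 42 ketogenic UMIs, at least 5.63-fold higher when the chow library is set at 3 counts. The genes of that cluster differed widely between the libraries, with 17.2% at least 2-fold higher. The B and plasma-like cells numbered 82 and 245.

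**Figure D3:**
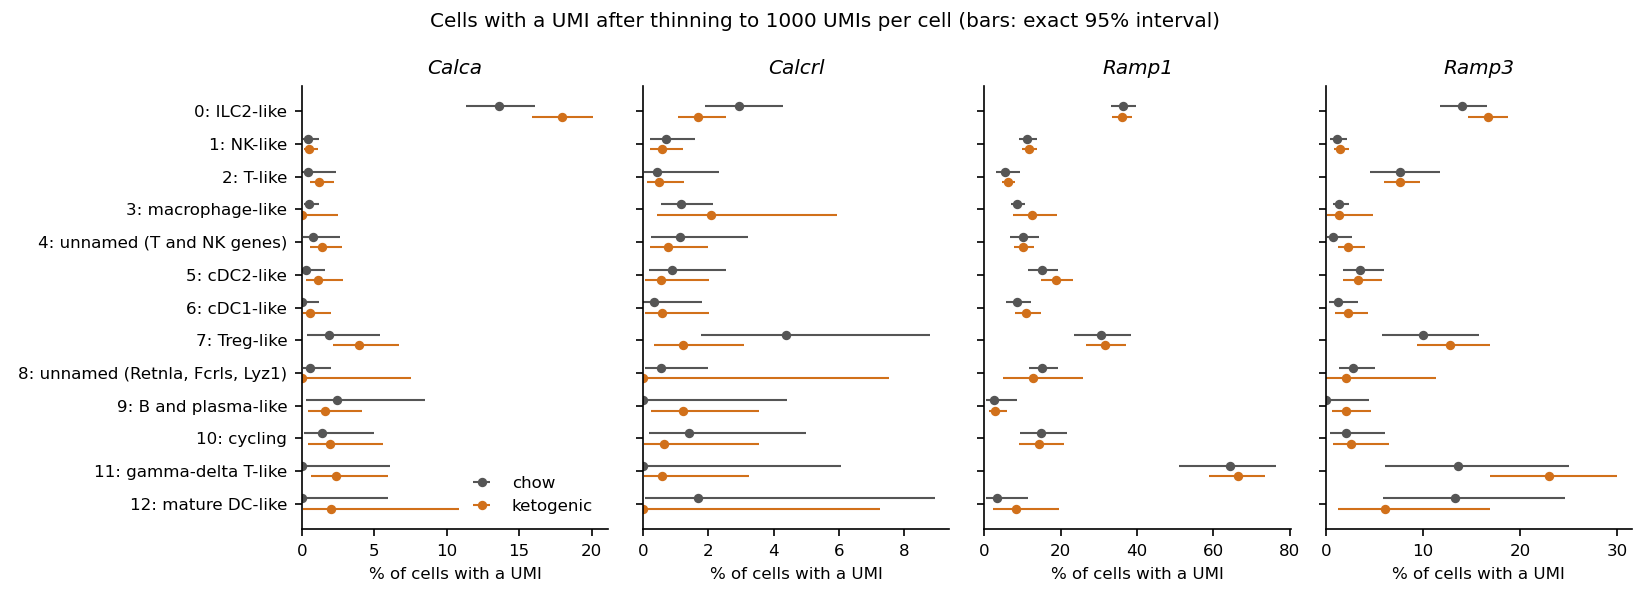
Share of cells with at least 1 UMI of Calca, Calcrl, Ramp1 and Ramp3 (horizontal axes, percent, from 0) after thinning every cell to 1000 UMIs, in the 13 clusters (rows) of the chow (grey) and ketogenic (orange) library; bars are exact 95% binomial intervals. At equal depth Ramp1 is found in 64.4% and 66.5% of gamma-delta T-like cells and in 36.4% and 36.1% of ILC2-like cells, and Calca in 13.6% and 17.9% of ILC2-like cells.

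The remaining receptor genes of the family were scarce in ILC2-like cells. Ramp2, the remaining accessory protein, had 2 chow UMIs and 1 ketogenic UMI there, and Calcr, the calcitonin receptor, and Ackr3, a scavenging receptor for adrenomedullin, had 0 in both libraries. Crcp, a small protein tied to CGRP receptor signalling that also belongs to RNA polymerase III, was at 14.7 and 14.9 CPM.

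Cells with the parts of a receptor were then counted. A UMI of Calcrl together with one of Ramp1 or Ramp3 was found in 50 of 854 chow ILC2-like cells (5.85%) and 62 of 1310 ketogenic ones (4.73%). Of these, 15 and 23 cells also had a Calca UMI. No background share was computed for these combinations, so they are counts of barcodes only. Calcrl was found in 9.74% (5.97 to 14.8) of the chow cells with Calca and 7.28% (5.42 to 9.54) of those without, and in 6.56% (4.25 to 9.60) and 5.08% (3.77 to 6.69) of the ketogenic ones. Ramp1 was found in 65.6% and 66.5% of chow cells with and without Calca and in 74.9% and 72.9% of ketogenic ones. Ramp3 was found in 32.8% (26.3 to 39.9) and 26.9% (23.5 to 30.4) of chow cells and in 39.3% (34.3 to 44.6) and 31.0% (28.1 to 34.1) of ketogenic cells. Of these shares, the ketogenic intervals of Ramp3 did not overlap. Cells with Calca were slightly deeper, at medians of 2754 against 2575 UMIs in the chow library and 3333.5 against 3083.5 in the ketogenic library. As summed levels, which allow for that depth, Ramp3 was at 208 against 182 CPM and at 256 (229 to 285) against 224 CPM (208 to 241), so the ketogenic intervals then overlapped. Ramp1 was at 454 against 519 CPM and 443 against 498 CPM, with ratios of 0.876 (0.762 to 1.01) and 0.888 (0.805 to 0.978). The ketogenic ratio left out equality, although the intervals of the ketogenic levels, 407 to 480 and 474 to 524 CPM, overlapped. In cells with at least 3 Calca UMIs, a cut added after seeing the data, Ramp1 was at 452 CPM in the chow library (log2 -0.19 against cells without Calca). In the ketogenic library it was then at 473 CPM (425 to 526, log2 -0.07).

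The ratios between the libraries were then set against those of all other genes of the ILC2-like cluster. Of the 7338 genes that had 50 UMIs or more there when the libraries were added, 1.49% were at least 2-fold higher and 1.76% at least 2-fold lower in the ketogenic library. Of the 6 genes, 4 reached that minimum, and 0 of those 4 passed 2-fold in either direction. With cells chosen by ILC2 markers and no Cd3 UMI in place of the cluster, an alternative added after seeing the data, Calca passed 2-fold (log2 1.58) and Ramp1 turned from log2 -0.06 to 0.33. That choice took in 994 chow cells, 639 of them in the cluster, and 1184 ketogenic cells, 927 of them in it. The 2 libraries thus differed in how many of these cells lay outside the cluster, and the part of those cells was not tested. The ratio of Calca (log2 0.74) was reached or passed by 321 of the 7338 genes, counting Calca, and that of Ramp3 (log2 0.31) by 1942. That of Calcrl (log2 -0.83) lay at or above 205 genes, counting Calcrl. The median over all these genes was log2 0.07.

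**Figure D4:**
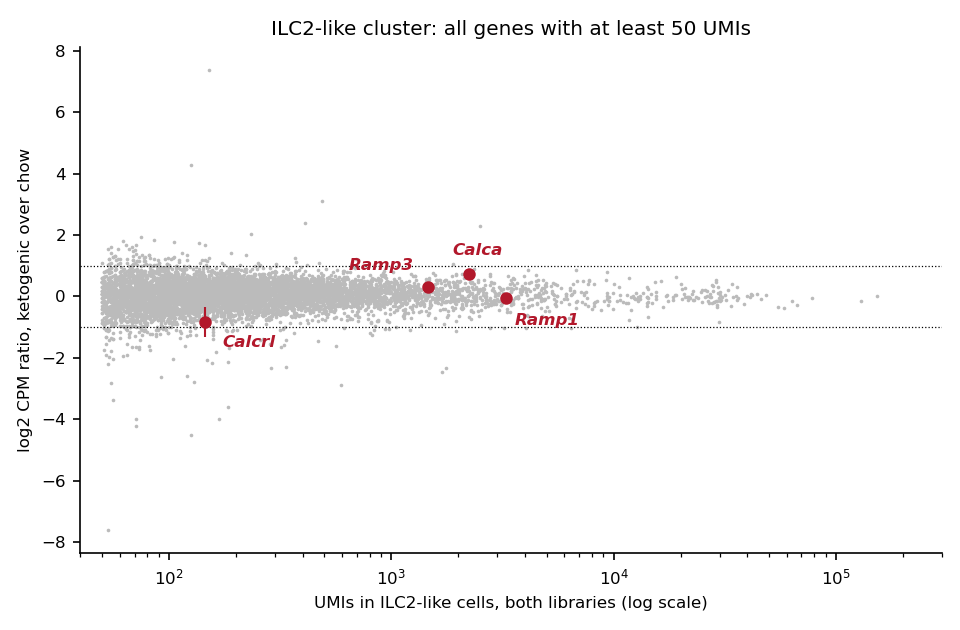
Log2 ratio of CPM, ketogenic over chow library (vertical axis), against UMIs over both libraries (horizontal axis, log scale) for the 7338 genes of the ILC2-like cluster with at least 50 UMIs; grey points are genes, red points are Calca, Calcrl, Ramp1 and Ramp3 with exact 95% counting intervals, and dotted lines mark 2-fold. Calca (0.74) and Calcrl (-0.83) lie on opposite sides inside the 2-fold lines, and Ramp1 (-0.06) near 0.

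Nmur1 and Vipr2 were barely detected. Nmur1 had 6 UMIs in all clusters of the chow library and 15 in the ketogenic library, 2 and 13 of them in ILC2-like cells, which is 0.841 CPM (0.102 to 3.04) and 2.98 CPM (1.59 to 5.10). Vipr2 had 16 and 19 UMIs in all, 11 and 13 of them in ILC2-like cells, which is 4.62 CPM (2.31 to 8.27) and 2.98 CPM (1.59 to 5.10). ILC2-like cells held 33.3% of the chow and 86.7% of the ketogenic UMIs of Nmur1, and 68.8% and 68.4% of those of Vipr2. In the chow library the Nmur1 level was highest in Treg-like cells, at 2.01 CPM from 1 UMI. Within ILC2-like cells, a UMI of Nmur1 was found in 0.234% and 0.992% of cells and one of Vipr2 in 1.29% and 0.916%. The intervals overlapped between the libraries for both genes, and no ratio can be read from so few UMIs. Vipr1, the other main receptor for vasoactive intestinal peptide, had 2 and 3 UMIs in ILC2-like cells and was highest in T-like cells at 8.25 CPM.

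Other genes of neural signalling were looked for in the same way. Of 90 genes of neuropeptides, neurotransmitters and their receptors, the 6 included, 36 had 0 UMIs in every cluster and 58 had 0 in ILC2-like cells. The peptides that would act on Nmur1 and Vipr2 were among the absent ones: Nmu, Nms, Vip and Adcyap1 had 0 UMIs, as did Tac1 (substance P) and Chat (the enzyme that makes acetylcholine). In CD45+ cells these zeros say nothing of nerves. Beside Adm and Crcp, Pomc and Htr1b were among the 5 with the highest CPM in ILC2-like cells. Pomc, the precursor of endorphin and melanocortin peptides, was at 9.67 and 10.8 CPM. Htr1b, a serotonin receptor, was at 6.31 CPM (15 UMIs, 3.53 to 10.4) and 11.2 CPM (49 UMIs, 8.32 to 14.9), out of 78 UMIs in all clusters of both libraries.

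Genes of the cyclic AMP pathway, through which these receptors signal, were compared in the ILC2-like cells. Of the 27 genes listed, 21 reached 50 UMIs, of which 0 were at least 2-fold higher and 2 at least 2-fold lower, beside 1.49% and 1.76% of all genes of the cluster. Their median was log2 -0.11 against 0.07 over all genes. The 2 lower ones were Pde4d (28 and 24 UMIs, 11.8 and 5.51 CPM, log2 -1.09) and Pde3b (104 and 90 UMIs, 43.7 and 20.6 CPM, log2 -1.08), enzymes that break down cyclic AMP. Pde8a, of the same kind, was next lowest at 13.03 and 7.57 CPM (log2 -0.79). The highest ratios were those of Prkaca, a catalytic subunit of the cyclic AMP-dependent kinase, at 21.0 and 39.7 CPM (log2 0.91), and of Gnas, the G protein that activates adenylyl cyclase, at 558 and 799 CPM (log2 0.52). The kinase subunit Prkacb followed at 63.9 and 78.7 CPM (log2 0.30).

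Type 2 cytokine and ILC2 genes were compared in the same cells. Of the 27 listed, 25 reached the minimum, and 0 passed 2-fold in either direction, beside the same 1.49% higher and 1.76% lower of all genes. Their median was log2 -0.13 against 0.07 over all genes. Il5, the growth factor of eosinophils, was at 426 CPM (400 to 453) and 303 CPM (286 to 319), log2 -0.49, and Areg, the tissue repair factor amphiregulin, at 1443 and 1298 CPM, log2 -0.15. Il13, a cytokine of mucus and alternative macrophage activation, was at 104 CPM (91.7 to 118) and 128 CPM (118 to 140), log2 0.30, so that the cytokines did not share 1 direction. One chow cell held 80 of the 248 chow UMIs of Il13 (32.3%), and without it the chow level was 70.7 CPM and the ratio log2 0.86. Without the top ketogenic cell, which held 62 of 560 UMIs, the ratio was 0.13, and without both cells 0.69. The other low ratios were those of Bcl2a1b (139 and 87.6 CPM, log2 -0.66) and of Il1rl1, the IL-33 receptor (790 and 513 CPM, log2 -0.62). The highest were those of Pdcd1, the checkpoint receptor PD-1 (75.7 and 121 CPM, log2 0.67), Il6 (12.2 and 17.9 CPM, log2 0.54) and Bmp7 (55.1 and 78.7 CPM, log2 0.51).

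The ILC2-like cells with a Calca UMI were next set against those without one, in each library on its own. Of 4337 genes with at least 50 UMIs in each library, leaving out Calca, 1 was at least 2-fold higher in both libraries (0.0231%) and 0 at least 2-fold lower in both. That gene was Adm, at 42.6 CPM in cells with Calca and 21.2 CPM in cells without in the chow library, and at 47.4 and 18.9 CPM in the ketogenic library. Its UMIs came from few cells, 9 of 195 with and 28 of 659 without Calca in the chow library, and 20 of 366 and 36 of 944 in the ketogenic library. In the chow library 1 cell held 24.0% of the Adm UMIs of the cells with Calca, and without it the ratio was log2 0.64, no longer past 2-fold. In the ketogenic library it was 1.02 without the top cell, so that the count of genes past 2-fold in both rests on 1 chow cell. The shares of cells with an Adm UMI, 4.62% (2.13 to 8.58) and 4.25% (2.84 to 6.08), then 5.46% (3.37 to 8.31) and 3.81% (2.69 to 5.24), overlapped within each library.

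Cytokines were compared in the same way, and they did not share 1 pattern. Il13 was at 116 CPM in chow cells with Calca and 100 CPM in those without, a ratio of 1.15 (0.858 to 1.53), and at 243 and 80.4 CPM in the ketogenic library, a ratio of 3.02 (2.55 to 3.58). An Il13 UMI was found in 6.15% and 6.22% of chow cells and in 11.2% and 6.46% of ketogenic cells with and without Calca, and 1 ketogenic cell held 19.8% of the Il13 UMIs of the cells with Calca. In the chow library 1 cell without Calca held 80 of the 180 Il13 UMIs of its side (44.4%). Leaving it out gave 55.9 CPM without Calca and a ratio of log2 1.05, past 2-fold, in place of 0.21. Leaving out the top cell with Calca gave log2 -0.16, and leaving out both gave 0.69, against 1.28 to 1.91 for the same changes in the ketogenic library. The chow ratio of Il13 thus rests on single cells. With at least 3 Calca UMIs, added after seeing the data, the chow ratio of Il13 was also just past 2-fold (199 CPM, log2 1.0001). Il5 was at 458 and 416 CPM in the chow library and at 409 and 258 CPM in the ketogenic library, with ratios of 1.10 (0.954 to 1.27) and 1.59 (1.42 to 1.77). The chow ratio of Il5 turned to log2 -0.11 with at least 2 Calca UMIs and was log2 0.33 (523 CPM) with at least 3, so it had no steady direction. Il2, quoted after its values were seen, was at 64.7 and 22.3 CPM in the chow library, with 42.1% of the UMIs of the cells with Calca in 1 cell (37.7 CPM without it), and at 23.3 and 28.7 CPM in the ketogenic library. Areg was higher with Calca in both libraries, at 1942 and 1280 CPM and at 1441 and 1238 CPM. Hs3st1, an ILC2 marker that modifies heparan sulfate, was also higher in both, at 574 and 417 CPM and at 520 and 331 CPM. Stab2, a scavenger receptor singled out after its values were seen, was at 54.5 and 30.1 CPM and at 41.9 and 11.7 CPM. Whether these ratios differ between the libraries was not tested. Gata3 was at 667 and 556 CPM and at 789 and 694 CPM, and Il1rl1 at 853 and 770 CPM and at 520 and 510 CPM.

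**Figure D5:**
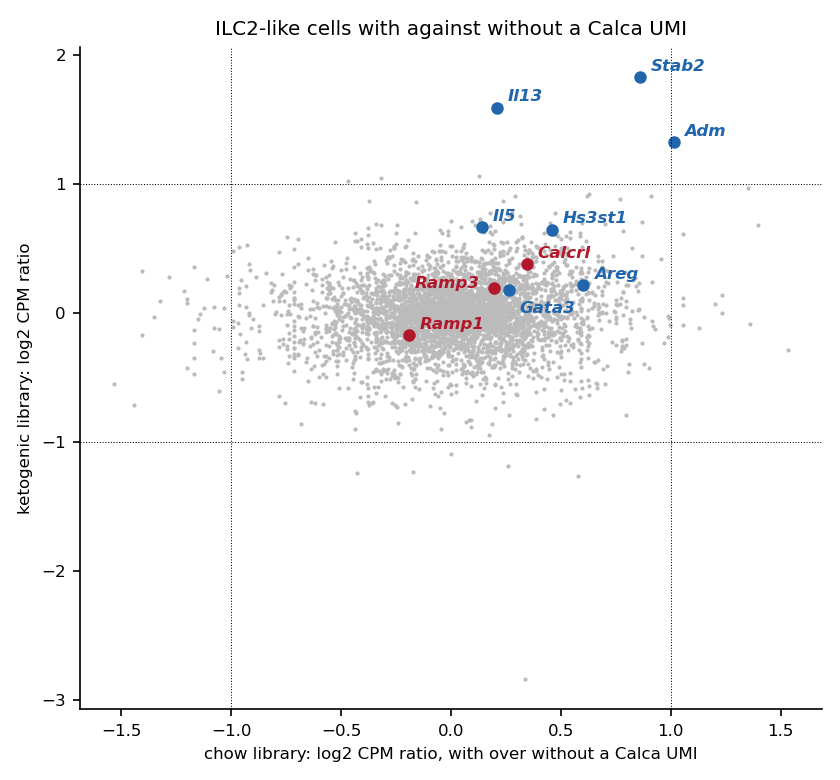
Log2 ratio of CPM in ILC2-like cells with a Calca UMI over those without, in the chow library (horizontal axis) and the ketogenic library (vertical axis), for 4337 genes (grey); receptor genes are red, other named genes blue, and dotted lines mark 2-fold. Adm alone lies past 2-fold higher on both axes, on the chow axis through 1 cell, Il13 is at 1.59 on the ketogenic axis and 0.21 on the chow axis, where 1 cell without Calca moves it to 1.05 when left out, and Ramp1 (-0.19 and -0.17), Ramp3 (0.19 and 0.19) and Calcrl (0.35 and 0.38) lie inside the 2-fold lines.

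The patterns of 4 of the genes over the 26 sums of cluster and library were compared with those of all genes, as Pearson r of log2(CPM + 20). The sums share libraries and the cluster labels, so r is a description. Most like Calca were Ccr8 (0.97), a chemokine receptor of type 2 lymphocytes, Acbd7 (0.97), Dach2 (0.96), Il13 (0.95) and Mmp2 (0.94), a matrix protease. Most like Ramp3 were Hemk1 (0.94), Paxbp1 (0.87), Mdfic (0.87), Il2ra (0.85), a chain of the IL-2 receptor, and Tnfrsf25 (0.84), a receptor of the TNF family. Most like Ramp1 were Tmem59 (0.89), Coro2a (0.88), Tex2 (0.88), Lmo4 (0.87) and Tusc3 (0.87). The values for Calcrl were lower, with Nol4l (0.78) and Zfp931 (0.76) first, then Dhx40 (0.76), RP23-218K15.3 (0.75) and AA467197 (0.75).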

How the data were processed

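Single-cell libraries of CD45+ adipose cells, 1 per diet, were used, grouped by the treatment label. The authors deposited raw UMI counts per gene and cell, per the file headers and as the integer entries show, and a table of cluster numbers at a resolution of 0.5. Cell Ranger, Seurat and the mm10 build are named in the submitters' processing notes, without versions. The number of mice behind each library is not stated in the labels.

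UMIs were summed per deposited cluster and library and divided by the cluster's total (CPM). Intervals are 95%: exact Poisson for sums, Clopper-Pearson for shares and exact conditional for ratios. They cover counting error only, and no test between diets exists. Log2 ratios had 0.5 added to each count, and counts of genes past 2-fold used genes whose UMIs in the cluster came to 50 or more with the libraries added. A count of 0 was set at 3 counts for bounds. Shares were also computed after thinning to 1000 UMIs per cell by exact hypergeometric expectation, which left out no cell. The computation was tested on simulated data with independent Poisson counts. These leave out the crowding of UMIs in single cells, so the test does not show that the intervals hold for these data. Python 3.11.15, numpy 2.4.6, scipy 1.17.1, pandas 2.3.3 and matplotlib 3.10.9 were used.

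A marker counted as raised when its CPM plus 20 was at least 2-fold above that of all other clustered cells, and clusters were named "X-like" from at least 3 raised markers, at least 1 of them among the 10 leading genes. Clusters 4 and 8 also met this rule, for T cell and macrophage markers, but were left unnamed by judgement, since cluster 4 also had 4 NK markers raised and cluster 8 had 3 cDC2 markers raised. The Treg-like cluster also met the rule for ILC2 markers, with 8 of 14 raised, and the macrophage-like cluster for monocyte markers. The cDC2-like cluster had 3 of 6 cDC2 markers raised and also 3 of 4 plasmacytoid dendritic cell markers, 0 of the latter among its 10 leading genes. The 142 cells without a cluster entered none of the cluster sums and are described on their own. No doublet caller was run, and cells of high UMI number were left out as an alternative. Genes were handled by ID. The GENCODE M21 annotation (GRCm38), which gave positions, holds 28339 of the 28692 IDs. All 6 genes matched the RefSeq promoter table, Nmur1 with 2 entries.

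The 6 genes and all lists were chosen with earlier results of these data known. Named genes were the 6, the 5 other neural genes with the highest ILC2-like CPM, the 3 highest and 3 lowest ratios of the cyclic AMP and type 2 lists, Il5, Il13 and Areg, and the 5 genes of highest r per gene with at least 100 UMIs. Other genes, among them Adm, Hs3st1, Gata3 and Il1rl1 by Calca and those quoted as cell markers, were quoted after their values were seen. Some genes that these rules or the marker lists hold are not reported here. Alternatives changed the CPM denominator, averaging, depth, cells, free RNA, pseudocount, minimum and thinning.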

Additional observations from a re-analysis of the deposited data

Results flagged for a closer look

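Ramp3 reached 50 UMIs in 12 clusters, and its ratios between the libraries went in opposite directions. The interval lay above equality in 5 of them and below it in 1, and in the rest it included equality. Ramp3 was lower in the ketogenic library in mature DC-like cells (log2 -1.23). It was higher in ILC2-like cells (0.31), the unnamed cluster 4 (1.204), cDC1-like cells (0.89), Treg-like cells (0.43) and gamma-delta T-like cells (0.80). The B and plasma-like cells, with 0 chow and 42 ketogenic UMIs, were under that minimum and also higher. The difference between clusters was not tested, and the mature DC-like value rests on 60 and 49 cells.

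The cells to which the authors gave no cluster, 87 in the chow and 55 in the ketogenic library, also held transcripts of these genes. Calca was at 36.0 CPM (8 UMIs) in the chow and 103 CPM (18 UMIs) in the ketogenic library, 7 of the 18 in 1 cell. Ramp3 had 4 UMIs in the chow library and was at 39.9 CPM (7 UMIs) in the ketogenic library. The intervals overlapped between the libraries for both genes.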

How the results depend on the processing

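In ILC2-like cells the ratios of Calca, Calcrl and Ramp3 between the libraries kept their direction under every alternative run, with Calcrl between log2 -0.88 and -0.49. No paired analysis was possible because each diet has 1 library. With cells chosen by at least 3 UMIs of ILC2 markers in place of the cluster (1634 chow and 2664 ketogenic cells, of which 841 and 1298 lay in it), the log2 ratios were 0.95 for Calca, 0.63 for Ramp3 and 0.23 for Ramp1, against 0.74, 0.31 and -0.06. The chow and ketogenic CPM were then 84.7 and 163 for Calca, 17.7 and 11.3 for Calcrl, 303 and 355 for Ramp1, 93.9 and 146 for Ramp3, and 1.995 and 1.55 for Vipr2, with 1.29 for Nmur1 in the ketogenic library. Among these cells without a Cd3 UMI, an alternative added after seeing the data, the ratios were 1.58 for Calca, 0.81 for Ramp3 and 0.33 for Ramp1, from 91.4 and 273 CPM of Calca, 91.4 and 161 of Ramp3 and 313 and 394 of Ramp1, with chow CPM of 19.2 for Calcrl and 1.66 for Vipr2. Of the cells without a Cd3 UMI, 639 of 994 chow and 927 of 1184 ketogenic ones lay in the cluster. The cause of these changed ratios was not tested. Without the gene's top cell in each library, also added after seeing the data, the log2 ratios of Calca, Calcrl, Ramp1 and Ramp3 were 0.75, -0.83, -0.06 and 0.32, while Il13 went from 0.30 to 0.69. Without mitochondrial and ribosomal protein genes in the denominator the CPM were 349 and 572 for Calca, 45.7 and 25.2 for Calcrl, 760 and 715 for Ramp1, and 285 and 347 for Ramp3. With 10% free RNA subtracted they were 253 and 419 for Calca, 539 and 509 for Ramp1, and 250 for Ramp3 in the ketogenic library. Without the 10 cells with most Calca per library, also added after seeing the data, Calca was at 184 and 341 CPM, log2 0.89. Shares of cells moved with depth: unthinned they were 22.8% and 27.9% for Calca, 7.85% and 5.50% for Calcrl, 66.3% and 73.4% for Ramp1, 28.2% and 33.4% for Ramp3, 1.29% and 0.916% for Vipr2 and 0.992% for Nmur1 in the ketogenic library. Thinned to 1500 UMIs they were 17.1% and 21.4% for Calca, 48.4% and 48.2% for Ramp1, 19.0% and 21.9% for Ramp3, and 4.45% for Calcrl in the chow library. Genes at least 2-fold higher in ILC2-like cells numbered 109 as reported and 1014, 264 and 41 with a minimum of 1, 20 and 100 UMIs, and genes at least 2-fold lower 129 and 1962, 287 and 60. Of cells with against without Calca, the log2 ratio of Il5 in the chow library was 0.14 and turned to -0.11 with at least 2 Calca UMIs, and that of Areg in the ketogenic library was 0.36. With at least 3, added after seeing the data, Il5 was 0.33 in the chow and 0.995 in the ketogenic library. In the same order Il13 was 1.0001 and 2.01, Areg 0.92 and 0.50, and Adm 1.85 and 1.56. Without the gene's top cell on each side, also added then, chow Il13 was 0.69, and the other 7 ratios of Il5, Il13, Areg and Adm stayed within their counting intervals, with chow Adm at 0.79. With log2(CPM + 5), 3 of the 5 genes most like Calca and 3 of those most like Calcrl were again among the first 5. Counts were lowest for Nmur1 and Vipr2, at 13 UMIs or fewer in the ILC2-like cells of either library.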
